A study of Mus musculus with 12 samples.

Results

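Mature thymocytes of Chrna9 knockout mice that carry CD4 alone (CD4SP) or CD8 alone (CD8SP) were compared by their T cell receptor sequences. The libraries were chosen by their titles, which give genotype, sorted population and a replicate number. They are 6 of the 12 libraries of the series, 3 of CD4SP and 3 of CD8SP cells, and the other 6 are the same populations of wild type mice. Each library has a table of beta chains (TRB) and one of alpha chains (TRA) that also lists delta chains (TRD). The knockout mice are labelled Chrna9-/-, with no cell type to which the loss is limited, and no allele is named for wild type mice. They came as 2 male pairs and 1 female pair with wild type mice. The sources used here give neither strain nor age, nor which replicate is the female. Cells were stained for CD4 and CD8 and no other surface protein named in the labels, and 1000000 CD4SP or 330000 CD8SP cells were sorted per library. The labels name no treatment.

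Chrna9 encodes the alpha9 subunit of nicotinic acetylcholine receptors and lies at chromosome 5, 65934854 to 65977486 (GRCm38.p6). Receptor libraries hold no readout of it, so the knockout could not be checked here. The series is titled as a study of cholinergic control of negative selection in thymocytes. The comparison asks how the receptors of the 2 mature lineages differ when the alpha9 subunit is missing.

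Developing thymocytes first join a V, a D and a J segment at the beta locus, and then join V and J segments at the alpha locus, where further V to J joins can replace earlier ones. Cells whose receptor binds MHC class II become CD4SP and cells whose receptor binds MHC class I become CD8SP, and cells that bind self ligands too strongly are deleted. The third complementarity determining region (CDR3) spans the join, and its middle residues face the peptide, while the V segment encodes the loops that mostly touch the MHC helices. Invariant natural killer T (NKT) cells carry an alpha chain of TRAV11 joined to TRAJ18, see lipids on CD1d, and are CD4 positive or double negative in mice.

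A few public CDR3 protein sequences, found in all 3 mice of a lineage, are shown as DNA. The first pair of lines gives 2 protein versions of the invariant NKT alpha chain and the next pair gives other alpha chains of CD4SP cells. The 2 lines after those give alpha chains of CD8SP cells, and the last 3 give beta chains, 2 of CD4SP and 1 of CD8SP cells. Each runs 5′ to 3′ from the codon of the conserved cysteine to the codon of the closing phenylalanine. Capitals mark the 5 middle codons, where the residues described further down were read. For each CDR3 protein sequence the nucleotide version with the most reads is shown. V and J are each the segment with the most reads over all its versions in the knockout libraries.
TRAV11 to TRAJ18: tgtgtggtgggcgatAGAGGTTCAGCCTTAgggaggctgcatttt
TRAV11 to TRAJ18, second version: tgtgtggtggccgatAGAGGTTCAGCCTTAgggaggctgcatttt
TRAV10 to TRAJ31: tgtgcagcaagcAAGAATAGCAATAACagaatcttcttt
TRAV7-2 to TRAJ37: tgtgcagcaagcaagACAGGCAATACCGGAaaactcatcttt
TRAV16N to TRAJ48: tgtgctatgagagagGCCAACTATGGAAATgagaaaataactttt
TRAV8-1 to TRAJ22: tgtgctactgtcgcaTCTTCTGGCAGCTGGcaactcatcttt
TRBV31 to TRBJ2-3: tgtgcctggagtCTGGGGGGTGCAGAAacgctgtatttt
TRBV31 to TRBJ1-3: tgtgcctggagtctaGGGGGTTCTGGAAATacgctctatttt
TRBV14 to TRBJ1-1: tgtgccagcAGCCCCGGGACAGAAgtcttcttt

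Counts of public chains here and below are reads of the CDR3 protein sequence, with all its nucleotide versions together. The printed versions held 29.5% to 95.3% of them. The first of these proteins was read 1839, 2100 and 1929 times in the CD4SP libraries of mice 1 to 3. In their CD8SP libraries it was read 12, 10 and 18 times. The TRAV10 to TRAJ31 chain had 30, 23 and 20 reads in CD4SP and none in CD8SP. In the other direction, TRAV8-1 to TRAJ22 had 34, 48 and 52 reads in CD8SP and none in CD4SP. These CDR3 proteins were picked from those with the largest folds in these 6 libraries. Their near or full confinement to 1 lineage at this depth thus follows from the choice. Their tests come with the other public chains below.

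Productive reads, those whose CDR3 is in frame and has no stop codon, numbered 23765 to 30831 for TRA in CD4SP and 31205 to 33285 in CD8SP libraries. For TRB they numbered 80040 to 104434 and 118507 to 119381. CD8SP libraries were thus read more deeply from fewer cells. All values below are shares of productive reads of a chain unless said otherwise, so a segment that takes more of the reads lowers the shares of the others. Reads were not collapsed by molecular identifiers, so a share weighs cells by their receptor RNA and by amplification, and fewer cells and less RNA per cell cannot be told apart. A fold change is the log2 ratio of CD4SP to CD8SP shares from edgeR's quasi-likelihood test with the mouse as a block, given with its standard error (SE), and a call is a Benjamini-Hochberg adjusted p under 0.05. Libraries of the same number were read as 1 mouse each, which the labels do not state in words. At equal depth the CD4SP and CD8SP libraries of a number shared 1290 to 1361 TRB nucleotide clonotypes (3 pairs), and those of different numbers shared 669 to 754 (6 pairs), with no overlap. Markers of other cells that a CD4 and CD8 gate could hold were low in both lineages apart from the invariant NKT chain. Reads with a TRDV or a TRDJ best hit took 0.856% ± 0.0509 of all alpha table reads, productive or not, in CD4SP. In CD8SP they took 0.757% ± 0.0774 (SD, n = 3). A TRDV joined to a TRAJ segment counts among them, so they do not mark gamma-delta cells alone. The chain of mucosal-associated invariant T cells made up 0.0107% ± 0.00669 of productive reads in CD4SP and 0.0176% ± 0.00226 in CD8SP. Both shares overlapped between the lineages.

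Beta chains of CD4SP and CD8SP cells used different V segments in every knockout mouse. TRBV31, TRBV2 and TRBV5 were higher in CD4SP cells, and TRBV14, TRBV17, the TRBV12 pair, TRBV29 and TRBV16 were higher in CD8SP cells. Of the 35 TRB segments tested, 30 were called (85.7%), 18 higher (51.4%) and 12 lower (34.3%) in CD4SP. With TMM factors the split was 15 and 13, and with DESeq2 13 and 14, because those scalings moved the median of all TRB segments from 0.17 to 0.04 and 0.01.

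TRBV31 is the V segment that lies 3′ of the J clusters in inverted orientation, at chromosome 6, 41557693 to 41558371 (GRCm38.p6). It made up 21.01%, 21.6% and 22.01% of TRB reads in the CD4SP libraries of mice 1 to 3, and 5.38%, 5.56% and 5.68% in their CD8SP libraries. The CD4SP libraries were all far above the CD8SP libraries, and the share was 3.89 times as large on average (log2 fold change 1.96, SE 0.02, adjusted p = 7.78e-16).

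Among the V segments at the other end of the locus, TRBV5 was the most used. It took 17.7%, 18.1% and 17.4% of reads in CD4SP and 9.50%, 10.1% and 10.7% in CD8SP, with no overlap (0.81, SE 0.04). TRBV2 was rarer, at 1.03%, 0.9901% and 0.920% of CD4SP and 0.354%, 0.262% and 0.255% of CD8SP reads, and had the second largest rise (1.76, SE 0.09). TRBV3 was higher as well (0.63, SE 0.05), while TRBV1 and TRBV4 were not called, at 0.02 and -0.13. TRBV4 was called lower in CD4SP with TMM factors (-0.26) and with DESeq2 (-0.29), and TRBV1 with DESeq2 (-0.14). TRBV1 to TRBV5 summed to 24.5% ± 0.349 of CD4SP and 15.3% ± 0.481 of CD8SP reads, and the 5 segments had a median of 0.63 beside 0.16 over all 23 TRBV segments tested.

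**Figure D1:**
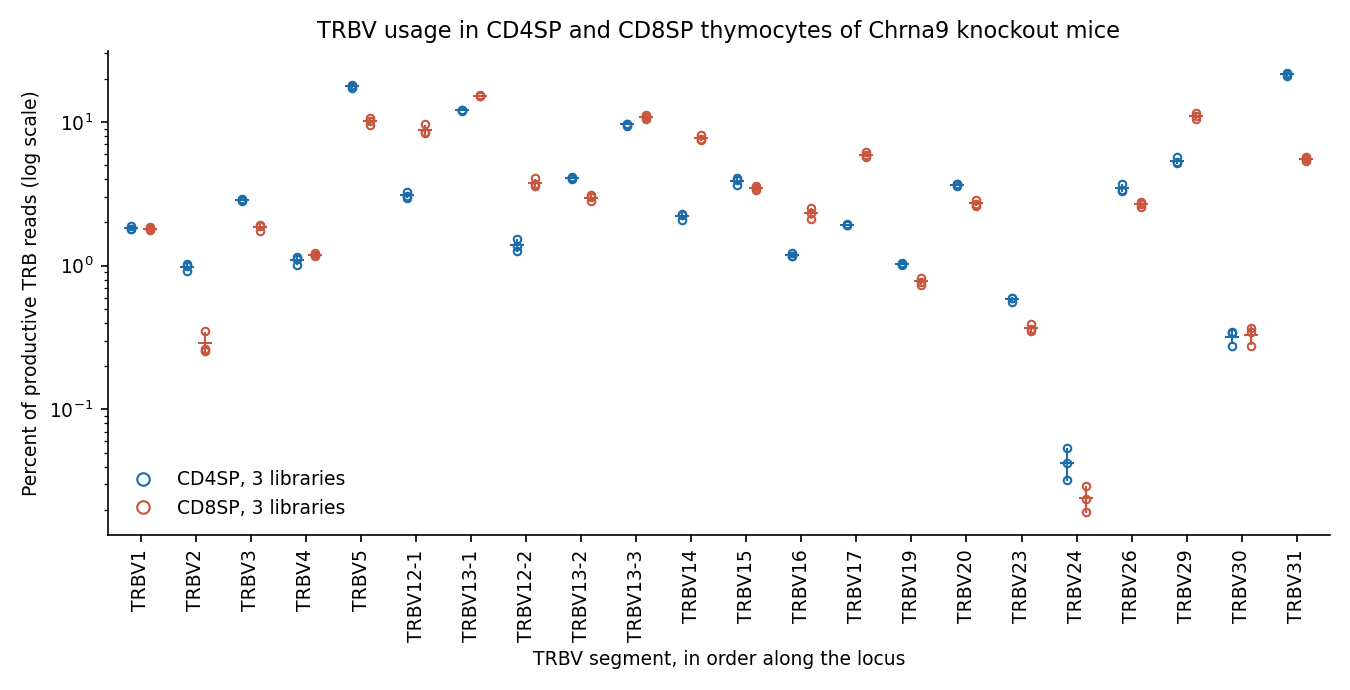
Share of productive TRB reads (percent, log axis) held by each TRBV segment in locus order, with an open circle per library, 3 CD4SP and 3 CD8SP, and bars for mean ± SD. TRBV21, at 0.0120% of CD4SP reads, is left out. TRBV31 sits between 21.01% and 22.01% in CD4SP and between 5.38% and 5.68% in CD8SP, and TRBV14 runs the other way.

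The segments most strongly higher in CD8SP cells were TRBV14, TRBV17 and the TRBV12 pair. TRBV14, at chromosome 6, 41135167 to 41135616, took 2.29%, 2.10% and 2.27% of reads in CD4SP and 7.60%, 8.19% and 7.51% in CD8SP (-1.81, SE 0.05). TRBV17 took 1.92%, 1.95% and 1.93% of reads in CD4SP and 5.91%, 5.69% and 6.17% in CD8SP (-1.61, SE 0.04). In both, each CD8SP library was well above each CD4SP library, and the CD4SP libraries lay closer together than the CD8SP libraries. TRBV12-1 made up 3.09% ± 0.138 and 8.85% ± 0.671 (-1.52), and its neighbour TRBV12-2 1.39% ± 0.139 and 3.78% ± 0.233 (-1.45).

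TRBV29, TRBV26, the TRBV12 pair and TRBV15 to TRBV17 form a partial list of segments known for deletion by retroviral superantigens. Deletion occurs in mice that have the right superantigen and MHC class II molecule. Together they took 20.5%, 20.2% and 20.3% of reads in CD4SP and 38.8%, 37.9% and 37.5% of CD8SP TRB reads, a share 1.87 times as large in CD8SP. Of the 7 segments, 5 fell in CD4SP relative to CD8SP, beside 8 of all 23 TRBV segments tested. Among the 5 were TRBV29 (5.37% ± 0.264 and 11.04% ± 0.541, -1.04) and TRBV16 (1.18% ± 0.0299 and 2.32% ± 0.207, -0.97). The other two were higher in CD4SP, TRBV26 by 0.37 and TRBV15 by 0.16, and the call of TRBV15 was lost with TMM factors (0.04) and with DESeq2 (0.0034). The median of the list was -1.04. The list does not hold every segment so known, so its count and median hold for these 7 segments alone. The strain, which sets which superantigens are present, is not given.

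Closely related V segments did not always lean alike. Of the TRBV13 family (Vbeta8), TRBV13-2 rose from 2.98% ± 0.141 in CD8SP to 4.07% ± 0.0588 in CD4SP (0.45, SE 0.06). TRBV13-1 went from 15.2% ± 0.105 to 12.1% ± 0.149 (-0.33, SE 0.02) and TRBV13-3 from 10.9% ± 0.363 to 9.62% ± 0.152 (-0.18, SE 0.02). The 3 segments thus split 1 to 2, and their summed share was 25.8% ± 0.143 in CD4SP and 29.1% ± 0.385 in CD8SP. Of the 8 segments tested from TRBV19 to TRBV30, 5 were higher in CD4SP, TRBV19 (0.40), TRBV20 (0.43), TRBV23 (0.67), TRBV24 (0.82) and TRBV26, and only TRBV29 was lower. Since TRBV29 is the most used of them, the summed share was still lower in CD4SP, 14.5% ± 0.255 against 17.9% ± 0.674, while the median segment was at 0.42. TRBV24 was rare, at 0.0427% ± 0.0108 of CD4SP and 0.0241% ± 0.00501 in CD8SP, and its call was lost with DESeq2, with each clonotype counted once and without mouse 1 (adjusted p = 0.147, 0.39 and 0.0926).

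J segments of the beta chain differed by less than V segments. TRBJ2-1 was lower in CD4SP, at 10.6%, 10.9% and 10.2% against 14.6%, 14.5% and 14.5% in CD8SP (-0.46, SE 0.02). TRBJ2-7, the most used J, was at 21.8% ± 0.0600 and 25.0% ± 0.0684 (-0.20, SE 0.01). TRBJ1-3 (4.51% ± 0.107 and 3.31% ± 0.0986, 0.44), TRBJ1-4 (0.37), TRBJ2-4 (0.30) and TRBJ2-3 (0.27) were higher in CD4SP. Over the 12 J segments 7 were higher, 4 lower and 1 not called, and the sizes did not exceed 0.46 in either direction. The calls of TRBJ1-6, TRBJ2-2 and TRBJ2-5 were lost with DESeq2, and those of TRBJ1-6 and TRBJ2-2 with TMM factors too. The TRBJ2 cluster as a whole took 73.0% ± 0.730 of reads in CD4SP and 74.1% ± 0.428 in CD8SP.

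V segments with the largest folds kept their lean with nearly every J they were joined to, and those with smaller folds did so less widely. Of 249 TRB pairs of V and J tested, 178 were called (71.5%), 90 higher (36.1%) and 88 lower (35.3%) in CD4SP. TRBV31 and TRBV5 were higher with 12 of their 12 J segments each, and TRBV2 with 11 of 12. TRBV12-1, TRBV12-2, TRBV14, TRBV17 and TRBV29 were lower with 12 of 12 each, and TRBV16 with 10 of 12. TRBV20 was higher with 6 of 12 and TRBV19 with 5 of 12. TRBV13-3 was lower with 4 and higher with 1 of 12, and TRBV15 higher with 4 and lower with 1. Pairs of 1 V share the lean of that V and are not independent. The pair with the largest rise was TRBV31 to TRBJ1-4, at 1.54%, 1.57% and 1.62% of CD4SP and 0.256%, 0.382% and 0.293% of CD8SP reads (2.36, SE 0.10). The pair with the largest fall was TRBV12-2 to TRBJ2-1, at 0.124%, 0.0823% and 0.0862% against 0.479%, 0.480% and 0.492% (-2.31, SE 0.14). These sizes came close to the sum of the V and J folds for TRBV31 to TRBJ1-4 (2.33) and went past it for TRBV12-2 to TRBJ2-1 (-1.91).

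Among alpha chains the largest difference was the invariant NKT chain. Reads of TRAV11 joined to TRAJ18 with a CDR3 of 15 residues took 6.37%, 7.30% and 8.49% of reads in CD4SP and 0.0571%, 0.0495% and 0.0737% of CD8SP TRA reads. The lowest CD4SP library was far above the highest CD8SP library. TRAV11 (8.02% ± 1.04 and 0.894% ± 0.0749, 3.16, SE 0.05) and TRAJ18 (9.47% ± 1.00 and 1.82% ± 0.0532, 2.37, SE 0.08) were the V and the J with the largest rise. With those reads left out TRAV11 was at -0.28 (adjusted p = 0.0458), and with each clonotype counted once it was at -0.05 (adjusted p = 0.725). TRAJ18 stayed higher in both settings, at 0.35 and 0.40. NKT cells in the CD4 gate were not removed by the sort. Leaving the chain out also widened the lineage difference of the TRAV10 family from 0.260 to 0.556 percentage points.

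Of the 125 TRA segments tested, 88 were called (70.4%), 41 higher (32.8%) and 47 lower (37.6%) in CD4SP. Among TRAV segments the split was 26 and 30 of 82, with a median of -0.20, and among TRAJ segments 15 and 17 of 43. MiXCR gave tied best hits, for the V or the J, for 41.6% to 44.2% of TRA reads in CD4SP and 31.1% to 32.4% in CD8SP. Duplicated TRAV genes are nearly identical in sequence, so single members of a family are uncertain. Family sums are given first for that reason. Of the 16 TRA segments with the largest folds named here, 11 could be tested with tied reads left out, and each kept its direction and call. The fold of TRAJ18 was far smaller in that setting than with all reads, at 0.31 (edgeR adjusted p = 0.00769). TRAV11, TRAV7-2, TRAV4D-4, TRAV3D-3 and TRAV12D-3 gave no value in that setting.

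The TRAV16 family was the one that leaned most to CD8SP. It made up 4.401%, 4.69% and 4.06% of CD4SP and 13.9%, 13.6% and 13.3% of CD8SP TRA reads. The CD8SP share was 3.10 times as large, and all 3 CD8SP libraries were above all 3 CD4SP libraries. Most of it was TRAV16N, at chromosome 14, 53351090 to 53351621 (GRCm38.p6), with 3.56%, 3.91% and 3.37% against 11.4%, 11.1% and 11.2% (-1.64, SE 0.05). TRAV16D-DV11, the other member tested, was at 0.768% ± 0.0775 and 2.33% ± 0.244 (-1.604, SE 0.07).

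Other families leaned to CD8SP in each member that was called. The TRAV3 family made up 1.30% ± 0.162 of CD4SP and 3.03% ± 0.101 in CD8SP, with 2 of 2 segments lower, TRAV3D-3 at -1.16 (SE 0.10). The TRAV12 family was at 2.09% ± 0.183 and 3.42% ± 0.159, with 4 of 7 lower and none higher, TRAV12D-3 at -1.06 (SE 0.08). With TMM factors 1 TRAV12 segment was called higher. The TRAV8 family was at 1.67% ± 0.125 and 2.63% ± 0.0189, with 4 of 4 lower, of which DESeq2 called 1. TRAV13 had 5 of 10 lower (DESeq2 called 3) and none higher, TRAV13-2 at -0.99 (SE 0.17).

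Well used families that leaned to CD4SP, beside TRAV11, were TRAV14 and TRAV4. TRAV14 took 13.5%, 13.6% and 13.6% of reads in CD4SP and 9.76%, 8.99% and 9.18% in CD8SP, and all 7 of its segments tested were higher, TRAV14D-3-DV8 by the most (1.55% ± 0.0543 and 0.460% ± 0.0670, 1.75, SE 0.13). TRAV4 made up 3.46%, 3.43% and 3.35% against 1.91%, 1.64% and 1.27%, with no overlap. Of its 5 segments tested 3 were higher, TRAV4D-4 (2.13, SE 0.17), TRAV4-2 (1.86, SE 0.17) and TRAV4-4-DV10 (0.98, SE 0.14), and none was lower. These counts for TRAV14, TRAV4, TRAV16 and TRAV3 were the same with TMM factors and with DESeq2.

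The most used families were split within themselves. TRAV7 took 35.8% ± 0.331 of reads in CD4SP and 33.1% ± 0.905 in CD8SP, with 5 of 11 segments higher and 4 lower. Reads assigned to TRAV7-2, which could not be tested with tied reads left out, were higher in CD4SP. They took 16.6%, 15.8% and 16.5% of CD4SP and 8.87%, 8.51% and 9.71% of CD8SP reads (0.85, SE 0.04). TRAV6, at 16.03% ± 0.397 and 16.9% ± 0.361, had 5 higher and 4 lower of 13. TRAV21 was higher in CD4SP (1.39% ± 0.114 and 0.888% ± 0.0390), and so was the rare TRAV17 (0.0578% ± 0.0169 and 0.0182% ± 0.0166). TRAV1, TRAV2 and TRAV19 were lower (-0.84, -1.11 and -0.49). The shares of TRAV5, TRAV9, TRAV10, TRAV15 and TRAV20 overlapped between the lineages.

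**Figure D2:**
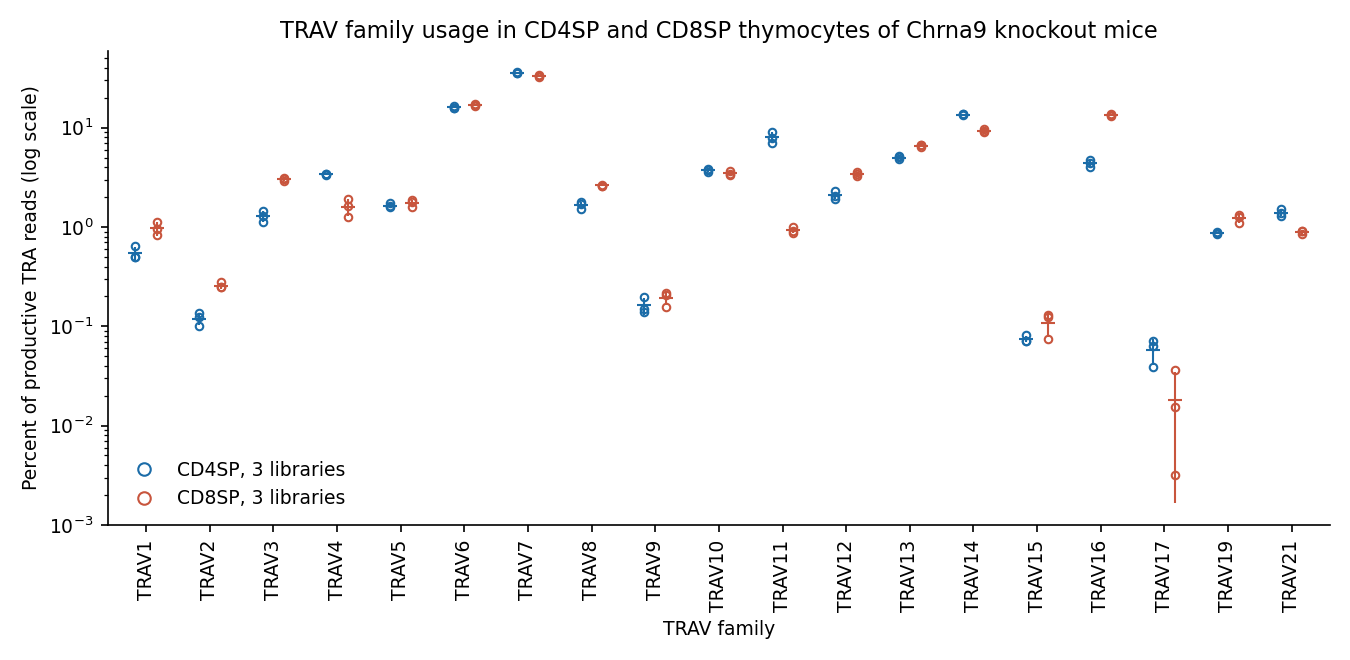
Share of productive TRA reads (percent, log axis) held by each TRAV family, with an open circle per library, 3 CD4SP and 3 CD8SP, and bars for mean ± SD. The sparse families TRAV18, TRAV20 and TRAV23 are left out. TRAV16 sits at 4.06% to 4.69% in CD4SP and 13.3% to 13.9% in CD8SP, and TRAV11, TRAV4 and TRAV14 run the other way.

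Along the J cluster of the alpha locus, segments that leaned the same way lay next to each other in places. From TRAJ50 to TRAJ45, near the 5′ end, 5 of the 5 segments tested were lower in CD4SP, from -0.34 to -1.62. The next 3, TRAJ44 to TRAJ42, were all higher, from 0.24 to 0.58, and so were TRAJ58 and TRAJ57 at the far end. These runs were picked after their values were seen and have no test of their own. TRAJ45 took 0.564%, 0.686% and 0.686% of reads in CD4SP and 2.05%, 1.89% and 1.99% in CD8SP (-1.62, SE 0.10). TRAJ47 was at 0.588% ± 0.0539 and 1.31% ± 0.0173 (-1.16), and the well used TRAJ30 at 3.05% ± 0.131 and 5.97% ± 0.129 (-0.97). TRAJ26 (-0.89), TRAJ22 (-0.58), TRAJ37 (0.70), TRAJ6 (0.56) and TRAJ31 (0.53) fell between. TRAJ37 had the largest rise after TRAJ18.

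J segments used late or early in successive joins did not shift as a block. TRAJ1 to TRAJ21, the 3′ part, took 40.7% ± 1.47 of reads in CD4SP and 33.2% ± 0.0671 in CD8SP, which includes TRAJ18, and its segments had 4 higher and 3 lower of 14. TRAJ22 to TRAJ41 made up 45.3% ± 0.751 and 50.8% ± 1.17, with 6 higher and 9 lower of 16. TRAJ42 to TRAJ61, the 5′ part, made up 14.0% ± 0.722 and 15.98% ± 1.12, with 5 and 5 of 13.

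**Figure D3:**
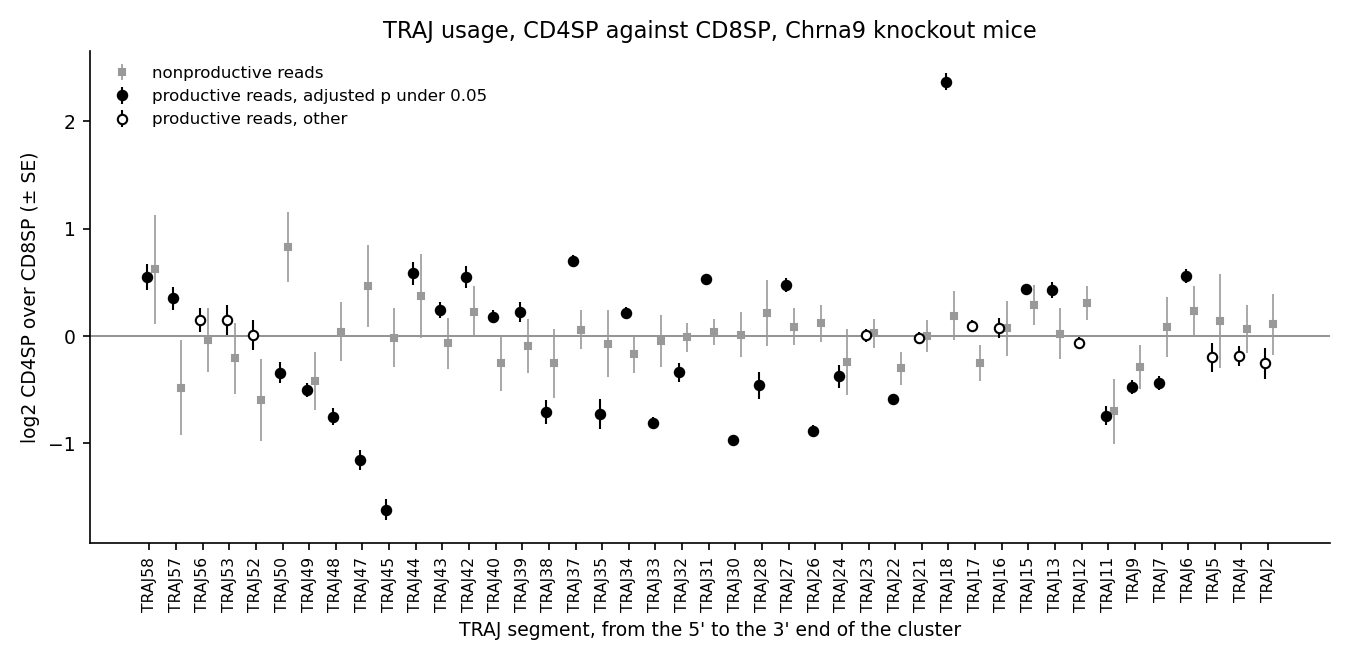
Log2 ratio of CD4SP to CD8SP shares (± SE) of each TRAJ segment, from the 5′ to the 3′ end of the cluster, in productive reads (circles, filled where the adjusted p is under 0.05) and in nonproductive reads (grey squares). TRAJ18 stands at 2.37 and TRAJ45 at -1.62 in productive reads, while their nonproductive values are 0.19 and -0.01.

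Of 454 pairs of TRAV family and TRAJ tested, 197 were called (43.4%), 84 higher (18.5%) and 113 lower (24.9%) in CD4SP. With DESeq2 the split was 89 and 75. TRAV16 was lower with 38 of its 41 J segments and higher with none. TRAV4 was higher with 19 of 35 and lower with none, and TRAV14 higher with 25 of 42 and lower with 3. The TRAV12 family was lower with 10 of 33 and TRAV3 with 12 of 30.

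Some pairs moved by more than their V and J together, taken as the sum of the log2 ratios of mean shares of the V family and the J. TRAV3 to TRAJ30 took 0.0551%, 0.0390% and 0.00421% of reads in CD4SP and 0.403%, 0.359% and 0.417% in CD8SP (-3.51, SE 0.30), where the V and J folds sum to -2.19. TRAV4 to TRAJ12 made up 0.441%, 0.439% and 0.501% against 0.0991%, 0.0464% and 0.0417% (2.88, SE 0.24), where they sum to 1.03. Both pairs were apart in all libraries, and the excess was not tested. TRAV16 to TRAJ45, at 0.0400% ± 0.00994 and 0.464% ± 0.0689, had the largest fall of the pairs named (-3.54, SE 0.27) and lay near its sum of -3.24. TRAV16 to TRAJ48 (-3.12), TRAV16 to TRAJ30 (-2.997) and TRAV8 to TRAJ30 (-2.41) also fell by more than their sums of -2.38, -2.60 and -1.62. TRAV14 to TRAJ31 rose by 1.995 (sum 1.08), TRAV14 to TRAJ42 by 2.01 (sum 1.10) and TRAV14 to TRAJ37 by 1.76 (sum 1.24). TRAV11 to TRAJ18 rose by 6.46, and by 1.60 with each clonotype counted once.

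The middle of the alpha CDR3 was more acidic in CD8SP cells. An aspartate or glutamate among the 5 middle residues was found in 13.4%, 13.7% and 13.9% of CD4SP and 25.4%, 25.3% and 25.6% of CD8SP TRA reads. A lysine or arginine was found in 31.8%, 32.9% and 33.6% against 22.7%, 22.8% and 22.9%. The 3 CD4SP libraries thus stood apart from the 3 CD8SP libraries in both. The mean charge of the 5 residues was 0.1999 ± 0.00596 in CD4SP and -0.0432 ± 0.00358 in CD8SP. These values include the invariant NKT chain, which carries an arginine and no acidic residue among the 5. Its most read CDR3 protein alone took 6.87% of CD4SP and 0.0413% of CD8SP reads of the 3 mice together. The basic share and charge are thus not those of CD4SP alpha chains in general. When the reads of each V family and J pair were given the same weight in both lineages, a setting chosen after seeing the data, the acidic shares were 16.4% ± 0.330 and 21.9% ± 0.175. The basic shares were then 28.6% ± 0.607 and 27.2% ± 0.890, higher in CD4SP in all 3 mice but overlapping between the lineages. The charge was 0.125 ± 0.00259 and 0.0447 ± 0.0129. The differences in acidic share and charge were thus 5.44 percentage points and 0.0806 with equal weights, against 11.7 percentage points and 0.243 without. The difference in basic share was 1.38 percentage points with equal weights and 9.96 without.

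By position, counted from the middle residue (the one after the midpoint in CDR3s of even length), 53 of 92 residue and position pairs of TRA were called (57.6%), 16 higher and 37 lower in CD4SP. With TMM factors the split was 23 and 28, and with DESeq2 23 and 24. Aspartate 1 before the middle was at 1.78%, 2.02% and 1.95% in CD4SP and 5.89%, 5.81% and 6.201% in CD8SP (-1.64, SE 0.05). Aspartate 2 after the middle (-1.36), glutamate 1 before (-1.35), methionine 1 before (-0.93) and glutamate 2 before it (-0.86) fell too. At the middle itself glutamate was at 0.196% ± 0.00844 and 0.789% ± 0.0779 (-2.01), below the share at which residues were named and given here because it is the darkest cell of the heat map.

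On the rising side, leucine 2 after the middle was at 8.13%, 9.07% and 10.5% of CD4SP and 2.19%, 2.17% and 2.38% of CD8SP reads (2.03, SE 0.04). The invariant chain carries this leucine, and without that chain the value was -0.15 (adjusted p = 0.0497). Arginine 2 before the middle was at 13.7% ± 0.975 and 5.00% ± 0.0595 (1.45, SE 0.03), and still called at 0.47 without the chain and at 0.41 with each clonotype counted once. Lysine 2 before the middle (1.17, SE 0.12), glutamine 1 before (0.71) and arginine 2 after (0.68) were higher as well.

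**Figure D4:**
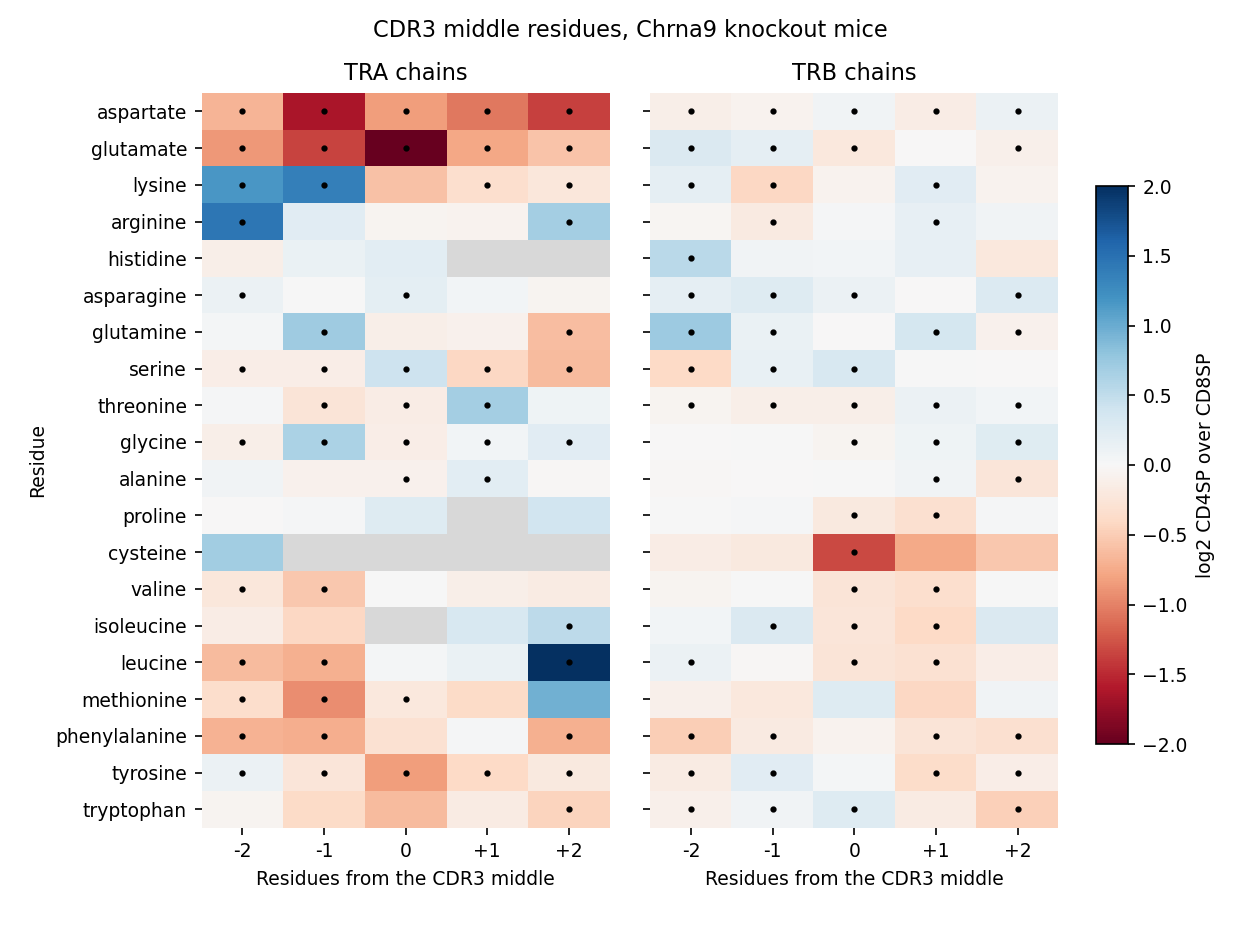
Log2 ratio of CD4SP to CD8SP shares of reads with a given residue at each of 5 positions around the CDR3 middle, for TRA (left) and TRB (right), blue where higher in CD4SP and red where lower, with colour saturating at 2. Dots mark an adjusted p under 0.05 and grey cells were not tested. Acidic residues of TRA are red at all 5 positions, down to -2.01 for glutamate at the middle, and TRB cells are paler.

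Beta CDR3 middles differed by less. Of 100 residue and position pairs 59 were called (59.0%), 27 higher and 32 lower. Glutamine 2 before the middle had the largest rise of those named, at 6.86%, 6.82% and 7.01% of CD4SP and 4.18%, 3.995% and 4.35% of CD8SP reads (0.72, SE 0.03). Histidine at the same place (0.55), glutamine 1 after the middle (0.35), serine at the middle (0.32) and glutamate 2 before it (0.30) were higher. Phenylalanine 2 before the middle (-0.49), lysine 1 before (-0.41), isoleucine 1 after (-0.41), serine 2 before (-0.39) and tyrosine 1 after it (-0.37) were lower. Mean charge overlapped between the lineages, at -0.373 ± 0.00614 and -0.378 ± 0.00795. With equal V and J weights it was -0.354 ± 0.00475 and -0.376 ± 0.00390, less negative in CD4SP in all 3 mice and with no overlap. The acidic share was 55.4% ± 0.384 and 54.7% ± 0.0756. A cysteine in the middle, which is known to be rare in mature receptors, was found in 0.0918% ± 0.0148 of CD4SP and 0.147% ± 0.00559 of CD8SP TRB reads, lower in CD4SP in all 3 mice. In TRA it went the other way, at 0.103% ± 0.0180 and 0.0575% ± 0.0180, higher in CD4SP in all 3 mice and with no overlap.

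CDR3s of 13 residues were more common in CD4SP cells in both chains. For TRA they took 32.0%, 32.5% and 32.0% of reads in CD4SP and 25.4%, 25.3% and 25.5% in CD8SP (0.34, SE 0.02). For TRB they made up 23.5% ± 0.204 and 19.4% ± 0.107 (0.28, SE 0.02). Of 13 TRA lengths 8 were called (61.5%), 2 higher and 6 lower, and with TMM factors 4 and 5, with DESeq2 4 and 2. TRA CDR3s of 16 residues (2.47% ± 0.0908 and 4.68% ± 0.392, -0.93) and 17 residues (-1.03) were lower. Length 15, that of the invariant chain, was higher at 0.21 and turned to -0.51 without it. Of 15 TRB lengths 7 were called (46.7%), 1 higher and 6 lower, and with TMM factors and DESeq2 3 and 4. TRB lengths 10 (-0.48), 11 (-0.33), 12 (-0.12), 16 (-0.28), 17 (-0.30) and 18 (-0.36) were lower. The call of length 18 was lost with TMM factors (adjusted p = 0.144), with DESeq2 (0.133), without mouse 1 (0.0834) and without mouse 2 (0.335). The mean TRB length overlapped at 13.74 ± 0.0252 and 13.76 ± 0.0213. With equal V and J weights it was 13.71 ± 0.0212 and 13.82 ± 0.0207, shorter in CD4SP in all 3 mice by 0.114 ± 0.0140 residues, with no overlap.

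Nucleotides added between segments differed little. Of 14 classes of TRA, 5 were called (35.7%), with 1 added nucleotide higher in CD4SP (18.7% ± 0.424 and 16.02% ± 0.2504, 0.22) and 3, 5, 6 and 8 lower. The class of 3, at -0.06, changed sign with TMM factors, with DESeq2, with each clonotype counted once and without the invariant chain. It also lost its call with no filter, without the block and without any 1 of the mice (adjusted p = 0.061 to 0.187 for the mice). The class of 5 lost its call with TMM factors, DESeq2, no filter on low counts, each clonotype counted once, without the invariant chain and without any 1 of the mice (adjusted p = 0.0582 to 0.895). Classes 6 and 8 lost theirs with DESeq2 (0.104 and 0.158) and with each clonotype counted once (0.627 and 0.549), and class 8 also without mouse 2 (0.0636). Class 1 was at 0.02 with each clonotype counted once (0.627). With TMM factors 1 was higher and 2 were lower, and with DESeq2 2 and 0. Joins without added nucleotides were at 37.5% ± 0.534 and 37.5% ± 0.403, which overlapped. The difference of CD4SP from CD8SP was -1.96 percentage points without the invariant chain and -1.003 with each clonotype counted once. Of 16 TRB classes none was called by edgeR (0%), with 2 at an unadjusted p under 0.05, and none by DESeq2, with 0 at an unadjusted p under 0.05. For TRB the mean number was 3.10 ± 0.0111 in CD4SP and 3.07 ± 0.0136 in CD8SP.

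CD4SP repertoires held more different beta chains. At an equal depth of 74021 reads, CD4SP libraries had 45248, 45602 and 42973 distinct TRB clonotypes and CD8SP libraries 39826, 38977 and 38749. The share of clonotypes seen once was 57.9% ± 2.34 and 50.5% ± 0.971. The inverse Simpson index is the number of equally common clonotypes that would give the same evenness. Over all productive reads of a library, without equal depth, it was 58443 ± 4477 and 43317 ± 1042. All 3 measures were higher in CD4SP in each mouse. CD4SP libraries were also made from more cells, and lineage and cell number cannot be told apart here. For TRA the index ran the other way, 707 ± 196 and 8368 ± 876, and without the invariant chain CD4SP was higher by 2487. TRA clonotypes at an equal depth of 19847 reads overlapped, 11622 ± 315 and 11197 ± 299.6, a difference of 424 that was 996 without the invariant chain.

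A panel of 29 such measures, with charge, length and marker shares among them, was tested over the 3 mice. Of these, 20 did not overlap between the lineages, 14 were higher and 9 lower in CD4SP in all 3 mice. An exact sign-flip permutation test over 3 mice cannot go below p = 0.25, two-sided, so none could pass (adjusted p = 0.315 at the lowest). The methods' paired test, a two-tailed test named in the labels, called 14 of the measures after Benjamini-Hochberg adjustment, 9 higher and 5 lower.

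Clonotypes shared between the libraries of a mouse differed by chain. Between CD4SP and CD8SP libraries, TRB nucleotide clonotypes were shared more within a mouse than between mice, as given above, while TRA clonotypes were not. Both libraries of 1 mouse shared 786 to 888 TRA nucleotide clonotypes, and CD4SP and CD8SP libraries of different mice 814 to 909, with the invariant chain left out. Libraries of the same lineage from different mice shared more TRA clonotypes than libraries of different lineages, 1207 to 1271 for CD4SP and 1060 to 1084 for CD8SP. For TRB these same-lineage counts were 1239 to 1333 for CD4SP, which overlapped those of both lineages within a mouse, and 860 to 875 for CD8SP. At the protein level CD4SP and CD8SP libraries shared 4986 to 5188 TRB clonotypes within a mouse and 4539 to 4773 between mice. Protein counts between mice of 1 lineage were 5894 to 6085 for CD4SP, above those within a mouse, and 5039 to 5108 for CD8SP. TRA protein counts of CD4SP with CD8SP libraries overlapped within and between mice.

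Public CDR3s are here the protein sequences seen often enough to be tested. Of 521 TRA sequences tested 169 were called (32.4%), 89 higher (17.1%) and 80 lower (15.4%) in CD4SP. Of the 80, 43 carried TRAV16 (87 tested). TRAV7 made up more than any other family of those tested (292), with 66 called higher and 16 lower. Of 618 TRB sequences 60 were called (9.71%), 36 higher (5.83%) and 24 lower (3.88%), and with TMM factors 61 and 1, with DESeq2 75 and 10. Of the 36, 26 carried TRBV31 (52 tested). Sequences pass the filter on low counts through the group where they are common, so the counts are of the tested ones only. The median called TRA sequence of either lineage had 0 added nucleotides.

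Single public chains differed by large folds, and those given were picked from the largest. The first invariant chain printed above had 5868 reads in CD4SP and 40 in CD8SP (7.39, SE 0.19). Its second version had 63, 71 and 54 reads in CD4SP and none in CD8SP, at least 71.1-fold higher, where a lineage with no read is set to 3 reads over its 3 libraries together. By the same rule TRAV10 to TRAJ31 was at least 27.6-fold and TRAV7-2 to TRAJ37, with 36, 9 and 9 reads, at least 20.4-fold higher in CD4SP. In CD8SP, TRAV8-1 to TRAJ22 was at least 39.4-fold and TRAV16N to TRAJ48, with 23, 35 and 27 reads, at least 25.0-fold higher. In the order given, the knockout log2 fold changes were 7.39, 8.97, 7.61, 7.11, -8.29 and -7.65. Those of wild type mice were 6.96, 8.69, 4.07, 4.52, -5.01 and -6.99.

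All 5 named beta chains of CD4SP cells carried TRBV31. The TRBJ2-3 chain had 32, 21 and 14 reads and the TRBJ1-3 chain 29, 22 and 5, with none in CD8SP (at least 28.0-fold and at least 23.4-fold). The call of the latter was lost without mouse 1 (adjusted p = 0.0548). The TRBV14 to TRBJ1-1 chain had 15, 17 and 12 reads in CD8SP and none in CD4SP (at least 11.7-fold, adjusted p = 0.035). Its call was lost with TMM factors (adjusted p = 0.081), no filter on low counts (0.74), knockout libraries only (0.0967) and without mouse 3 (0.19). The 5 named beta chains of CD8SP cells each lost their call with TMM factors. The TRBJ2-3, TRBJ1-3 and TRBV14 chains had log2 fold changes of 7.57, 7.25 and -6.69 in knockout mice. In wild type mice these were 7.79, 1.72 and -2.09.

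Nonproductive joins, out of frame or with a stop codon, are carried by cells through a second allele, and their protein is not selected. They made up 2.22%, 1.93% and 2.21% of TRB reads in CD4SP and 1.52%, 1.42% and 1.43% in CD8SP, with no overlap, and 7.45% ± 0.253 and 7.91% ± 0.446 of TRA reads, which overlapped. Fewer segments were called between the lineages in them. They were also far fewer reads, 1991 to 3003 per library for TRA and 1701 to 2366 for TRB, so the number called is not a measure of size. Of 107 TRA segments 5 were called (4.67%) and of 34 TRB segments 2 (5.88%), and DESeq2 called none of either, with 9 and 2 at an unadjusted p under 0.05. The called TRB segments were TRBV2 (3.06% ± 0.187 and 1.58% ± 0.714, 0.97, SE 0.27) and TRBV14 (2.99% ± 0.517 and 4.77% ± 0.0861, -0.68, SE 0.22), both in the direction of the productive reads.

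The called TRA segments were TRAV7-6 (1.49), TRAV16N (1.43), TRAV7N-6 (1.09), TRAV1 (-0.47) and TRAV8-1 (-0.74). TRAV16N went against its productive reads. It made up 1.91%, 2.17% and 1.71% of nonproductive TRA reads in CD4SP and 0.699%, 0.503% and 0.954% in CD8SP, from 133 and 60 reads. It was thus higher in CD4SP in nonproductive and lower in productive reads of all 3 mice. The nonproductive call was lost with DESeq2 (adjusted p = 0.0675), with single-read clonotypes left out (0.0739) and without mouse 2 (0.139), and each other call of this class was lost in at least 1 setting.

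The lineage difference was tested against read class for each segment. It differed for 40 of 131 TRA segments (30.5%), 12 higher and 28 lower in productive reads, and with TMM factors 17 and 17, with DESeq2 13 and 14. It differed for 19 of 36 TRB segments (52.8%), 10 higher and 9 lower. TRBV31 was at 21.5% and 5.54% in productive and at 18.9% ± 1.06 and 16.8% ± 1.12 in nonproductive reads, a difference of folds of 1.72 (SE 0.08). TRBV17 (-1.44), TRBV12-1 (-1.31), TRBV16 (-1.31) and TRBV14 (-1.15) were lower in the productive class. For TRA, TRAV11 (3.05), TRAJ18 (2.18) and TRAV4D-4 (1.98) were higher, and TRAV16N (-2.49), TRAV16D-DV11 (-2.46), TRAJ47 (-1.595), TRAJ45 (-1.37), TRAJ30 (-1.07) and TRAJ26 (-1.06) were lower. Of the V segments called in productive reads, 13 of 18 TRBV and 25 of 44 TRAV had the same sign in nonproductive reads. Their median size in productive and nonproductive reads was 0.81 and 0.26 for TRBV and 0.72 and 0.28 for TRAV. The median SE of the nonproductive values was 0.24 for TRBV and 0.30 for TRAV, close to those sizes.

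**Figure D5:**
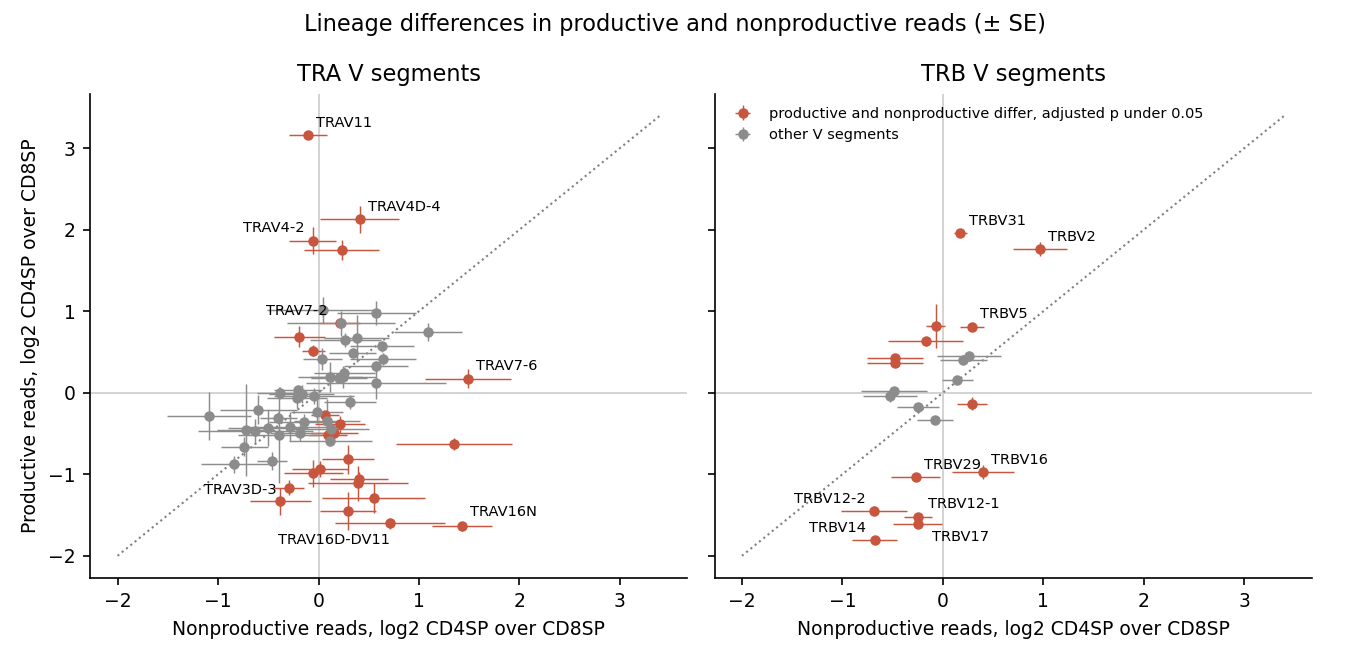
Log2 ratio of CD4SP to CD8SP shares of V segments (± SE) in nonproductive reads (horizontal) against productive reads (vertical), TRA left and TRB right, red where the classes differ at an adjusted p under 0.05. On the dotted line both classes differ alike. TRBV31 and TRAV11 lie far above it and TRAV16N, at 1.43 and -1.64, far below.

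The lineage difference was also set against that of wild type mice. In the test of knockout against wild type differences, edgeR called none of the 125 TRA segments (0%; 2 had an unadjusted p under 0.05) and none of the 35 TRB segments (0%; 0 had one), and DESeq2 called none, with an unadjusted p under 0.05 for 1 of each. Among CDR3 lengths and residues 1 each was called, TRA length 15 (7.69%) and leucine 2 after the TRA middle (1.09%), both features of the invariant chain. That chain made up 7.39% ± 1.06 of CD4SP reads in knockout mice. Its lineage difference was 1.37 percentage points wider than in wild type mice, with p = 0.2 in an exact two-sided permutation of the genotype labels over 3 and 3 mice, which cannot go below 0.1.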

How the data were processed

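Per the labels, RNA of sorted thymocytes was made into alpha and beta T cell receptor libraries with a SMARTer mouse kit, sequenced on a MiSeq, and analysed by the authors with MiXCR and VDJtools. The submitters' processing notes name build mm10, and neither the MiXCR version nor its settings are stated there. The deposited tables, 24 in all and 1 per library and chain, give a whole read count per clonotype, and, per the file headers, the fraction of reads that the authors computed from it, which was used only to check the counts. No molecular identifiers are named, so reads do not count molecules or cells. With the mouse as a block, p-values of the lineage test measure the spread of CD4SP to CD8SP differences over mice of both genotypes.

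A segment is the best hit of a clonotype before the allele mark. Coordinates of segments were matched to a RefSeq gene table of GRCm38.p6 (160 of 160 tested segments). Counts of productive reads per segment, V and J pair, CDR3 length, middle residue, added nucleotides and public CDR3 were fitted with edgeR 4.0.16 in R 4.3.3 (quasi-likelihood, all 12 libraries, mouse as a block, a lineage coefficient per genotype). Libraries were scaled by their productive reads of that chain alone, and filterByExpr, given the 4 groups, removed sparse features. A feature was called at a Benjamini-Hochberg adjusted p under 0.05. Nonproductive reads were fitted alike, and the test between read classes had the library as a block. Repertoire measures were computed with scipy 1.17.1, pandas 2.3.3 and numpy 2.4.6 under Python 3.11.15, and figures with matplotlib 3.10.9. Distinct clonotypes and the share seen once were expected values at 19847 TRA or 74021 TRB reads. Sharing between knockout libraries was an expected value at 21747 TRA or 80040 TRB reads, with the invariant chain left out. The inverse Simpson index was taken over all productive reads of a library.

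The pairing by number follows the replicate numbers of the titles. Deviations of same-numbered knockout libraries from their group means correlated at 0.388, -0.0271 and 0.0447 over 111 TRA segments and at 0.642, 0.206 and 0.622 over 33 TRB segments. Between different numbers the correlations ran from -0.277 to 0.242 for TRA, overlapping those of the same number. For TRB they ran from -0.6502 to 0.0119, with no overlap.

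Named segments were the 8 with the largest fold per direction and chain among those called with a mean share of at least 0.5%. Pairs, lengths, residues, added nucleotides and public CDR3s were the 5 per direction, with at least 0.1% for pairs and lengths and 0.5% for residues. Members and lists were chosen with earlier results of these data known. Other features given are members of a list, or were chosen after their values were seen.

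Alternatives were TMM factors, DESeq2 1.42.0, no filter on low counts, each clonotype counted once, single-read clonotypes left out, the invariant chain left out, tied segments left out, knockout libraries only, no block, and each mouse left out. Weighting to equal V and J pairs was added after seeing the data. The edgeR steps were tested on simulated data for the knockout comparison, drawn with a fixed dispersion and no mouse effect. For TRA segments, 11 of 12 changed 2-fold (91.67%) and 11 of 13 changed 1.25-fold were recovered, with 0 of 100 unchanged ones called. For TRB segments these counts were 3 of 3, 3 of 4 and 2 of 28. They were 9 of 9, 7 of 9 and 3 of 74 for TRA residues. TRB lengths gave 2 of 2, 2 of 2 and 2 of 11. TRB pairs gave 23 of 25 (92%), 16 of 25 (64%) and 1 of 199. Public TRA sequences gave 19 of 52 (36.54%), 2 of 52 (3.846%) and 0 of 417.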

Additional observations from a re-analysis of the deposited data

Results flagged for a closer look

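The lineage difference differed between knockout and wild type mice for 2 features by edgeR's test of the interaction. For TRA CDR3s of 15 residues the knockout log2 fold change was higher by 0.18 (SE 0.04, adjusted p = 0.0153), at 0.21 in knockout and 0.04 in wild type mice. For leucine 2 after the TRA middle it was higher by 0.28 (SE 0.07, adjusted p = 0.00845), at 2.03 and 1.75. Both are features of the invariant NKT chain. With that chain left out the adjusted p was 0.277 for the length and 0.973 for the leucine. With DESeq2 the adjusted p was 0.219 and 0.417, and with each clonotype counted once 0.759 and 0.94. With TMM factors the length was at 0.28.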

How the results depend on the processing

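The counts of called segments, V and J pairs, lengths and residues stayed within 1.5 times of their values in every alternative run for them. Without the replicate block, that is without the pairing by mouse, 91 TRA and 30 TRB segments, 205 TRA and 177 TRB pairs and 200 TRA public sequences were called, but TRB public sequences went from 60 to 115, and the difference between genotypes among TRA residues from 1 to 0.

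Other counts moved more, and the cause was not tested. Called classes of TRA added nucleotides went from 5 to 3 with TMM factors, 2 with DESeq2, 3 with no filter, 0 with each clonotype counted once and 10 with single-read clonotypes left out, and 2 to 4 with a mouse left out. Called nonproductive TRA segments went from 5 to 0 with DESeq2, 2 with no filter, 0 with single-read clonotypes left out, and 0 to 1 with a mouse left out. Nonproductive TRB segments went from 2 to 0 with DESeq2, single-read clonotypes left out or knockout libraries only, and 0 to 2 with a mouse left out. TRA public sequences went from 169 to 66 with no filter, 11 counted once, 108 without single-read clonotypes and 90 to 102 with a mouse left out. TRB public sequences went from 60 to 4, 14, 24 and 8 to 22. Differences between read classes went from 40 to 25 to 31 (TRA) and from 19 to 12 to 16 (TRB) with a mouse left out.

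The genotype difference at TRA lengths went from 1 to 0 with TMM factors, DESeq2, each clonotype counted once and no invariant chain (0 to 1 with a mouse left out), and that at TRA residues to 0 with DESeq2 and counted once (0 to 3). The methods' paired test called 14 measures where the exact test could call 0.

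Values that changed sign were small or held by the invariant chain. Without that chain TRAV11 was at -0.28, its family share at -0.157 percentage points, TRA length 15 at -0.51, length 12 at 0.0391, leucine 2 after the middle at -0.15, 3 added nucleotides at 0.0534, mean added nucleotides at 0.0114, the TRA inverse Simpson difference at 2487, the 10 largest clonotypes at -0.390 and TRAV6 at 0.421 percentage points. Counting clonotypes once put TRAV11 at -0.0486, its family at -0.0498, length 15 at -0.34, length 12 at 0.0073, 3 added nucleotides at 0.0322, mean added nucleotides at 0.00733, TRBJ1-5 at -0.0495 and TRBV1 at -0.0264. With TMM factors 3 added nucleotides were at 0.0054, length 12 at 0.0887, TRBJ1-5 at -0.0551 and TRBV1 at -0.11. With DESeq2 these were at 0.0288, 0.16, -0.0885 and -0.14, and length 14 at 0.0056. Without single-read clonotypes TRBV1 was at -0.0235, with a mouse left out TRBV30 ran from -0.0641 to 0.0085 (the latter without mouse 2), and with equal V and J pairs the TRB basic share difference at 0.0694 percentage points.

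The invariant chain setting was not run for nonproductive reads, which hold none of it. With 3 mice exact tests of single measures cannot pass 0.05, and public sequences have few reads, so a chain with none in a lineage was not detectable at this depth rather than absent.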
